A study of Mus musculus with 12 samples.

Results

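The transcripts described here are those of 10 genes taken as markers of blood cells in a piece of liver. The adult hemoglobin genes are Hba-a1, Hba-a2, Hbb-bs and Hbb-bt. The other red cell genes are Alas2 and Slc4a1, and the platelet genes are Pf4, Ppbp, Itga2b and Gp9. The genes were chosen by symbol, and all 10 were found among the 45777 genes counted in mouse liver. Whole livers came from male C57BL/6 mice aged 10 to 12 weeks that had been fasted overnight and then given 1 intraperitoneal injection of acetaminophen (APAP, 300 mg/kg) or vehicle, with the tissue taken after 6 h. Mice labelled as Gna12 knockouts (KO, lacking Gα12, a G protein subunit) and their wild-type (WT) littermates each received either treatment, which gave 4 groups of 3 livers, 1 library per liver. Gna12 was counted at 1193 to 4373 reads in the 6 WT livers and at 2472 to 4003 reads in the 6 libraries labelled KO, so the counts did not separate the genotypes, and the word label is kept throughout for every comparison of them.

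Hemoglobin carries oxygen as a tetramer of alpha chains (from Hba-a1 and Hba-a2) and beta chains (from Hbb-bs and Hbb-bt) that each hold a heme. Circulating reticulocytes still contain abundant globin mRNA, and platelets, which have no nucleus, contain mRNA inherited from megakaryocytes. Hepatocytes are not the main site of globin production, and these transcripts in a liver extract are commonly read as a measure of blood left in the tissue. In bulk RNA, fewer cells of a type and less RNA per cell cannot be told apart.

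The paired hemoglobin genes are close to identical in sequence, which bears on every count below. In GRCm38, Hba-a1 lies at chr11:32283672-32284486 and Hba-a2 at chr11:32296492-32297310, with 12005 bp between them, while Hbb-bs lies at chr7:103826523-103827928 and Hbb-bt at chr7:103812524-103813923, 12599 bp apart. The coding sequences of Hba-a1 and Hba-a2 in the GENCODE transcripts of that build were 426 bases long with 1 difference, and 281 of 327 windows of 100 bases, the length of a read, were the same in both. Hbb-bs and Hbb-bt shared 317 of 342 such windows over 441 bases, again with 1 difference. The 30 bases around each difference are shown because only reads over that base, or over the untranslated ends, can assign a read to 1 gene of a pair; the capital marks the base that differs, and each window lies within an exon of its coding sequence.
Hba-a1 (chr11:32284329-32284358, + strand): catgcctctctggaCaaattccttgcctct
Hba-a2 (chr11:32297146-32297175, + strand): catgcctctctggaTaaattccttgcctct
Hbb-bs (chr7:103826677-103826706, - strand): gtggctggagtggcCgctgccctggctcac
Hbb-bt (chr7:103812668-103812697, - strand): gtggctggagtggcTgctgccctggctcac
The division of reads within a pair is therefore uncertain, and the sum over the 4 genes is the firmer quantity. Counts of members below list the 4 hemoglobin genes singly, though they are not independent of each other.

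The remaining members are single genes. Alas2, the erythroid enzyme that starts heme synthesis, is on chromosome X (chr X, 150547417 to 150570622). Slc4a1, the band 3 anion exchanger of the red cell membrane, and Itga2b, the alpha subunit of the platelet fibrinogen receptor, lie 88015 bp apart on chromosome 11. Pf4 and Ppbp, which encode chemokines stored in platelet granules, are neighbors on chromosome 5 with 2371 bp between them. Gp9, a subunit of the platelet receptor for von Willebrand factor, is on chromosome 6.

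A search of RefSeq promoters of GRCm38 (250 bases before to 50 after each start, 9 members matched) was made for 4 motifs on both strands, described in turn, none of which contains another. GATAAG, a site recognised by the GATA factors of red cell and platelet precursors, was found in 5 of 9 member promoters (the 4 hemoglobin genes and Gp9) and in 7.44% of all 32851 promoters. CCAAT was found in 6 of 9 against 37.4%, CACCC in 7 of 9 against 57.5%, and TATAAA in 3 of 9 against 13.6%. The Hba-a1 and Hba-a2 promoters matched at 297 of 297 bases compared, so they are not separate sequences, although the counts above include both. The stretches with GATAAG are shown, in capitals, as the letters that hemoglobin genes and a platelet gene had in common; a match is a description of sequence and not evidence of a bound factor.
Hba-a1 (chr11:32283478-32283507, + strand, motif from position -182): gtccgggcaactGATAAGgattccctgcac
Hba-a2 (chr11:32296295-32296324, + strand, motif from position -185): gtccgggcaactGATAAGgattccctgcac
Hbb-bs (chr7:103828120-103828149, - strand, motif from position -209): gttctctgcacaGATAAGgacaaacattat
Hbb-bt (chr7:103814110-103814139, - strand, motif from position -204): attagctgcaagGATAAGaacagacactac
Gp9 (chr6:87778015-87778044, + strand, motif from position -43): ctgtctttagggGATAAGccaggctatttt

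The libraries held 49737950 to 69566079 counts each. Liver 1 of the APAP-treated WT mice stood apart from the other 11. It had the highest level, in CPM (read counts relative to the library total after TMM scaling), of 2413 (19.6%) of the 12304 genes with a mean of at least 1 CPM, while each other liver had the highest level of 522 to 1478. Its TMM factor, which corrects for library composition, was 0.750 against 0.892 to 1.13. Short transcripts were also relatively high in it. Over 11156 genes with a known length, the median log2 CPM difference from the other livers was 0.32 for the quartile of genes with the shortest transcripts (under 1991 bp) and -0.33 for the quartile with the longest (over 4656 bp), a gap of 0.65, while the gap in each of the other 11 livers lay between -0.24 and 0.23. The transcripts of the hemoglobin genes, Pf4, Ppbp and Gp9 (554 to 1083 bases) fall in the shortest quartile, those of Alas2 (2037), Itga2b (3437) and Slc4a1 (4545) do not. The part of transcript length in the values below was not tested. The member fold changes and calls that rest on this liver are given with and without it.

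**Figure D1:**
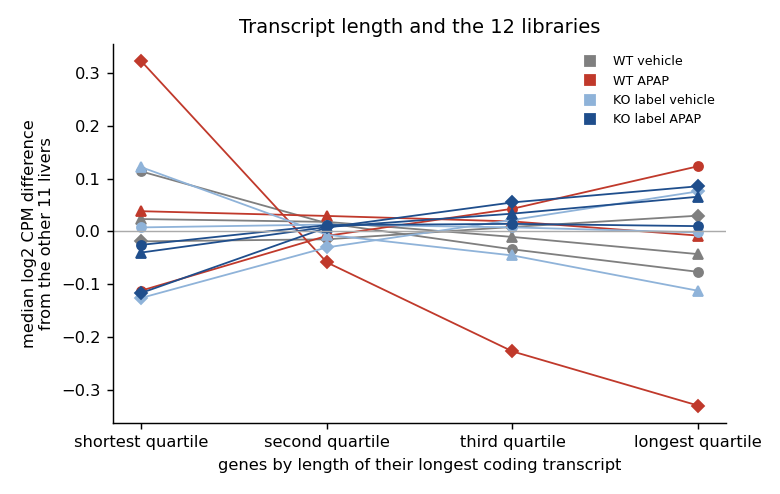
Median log2 CPM difference of each liver from the other 11 (vertical axis) for genes in 4 quartiles of transcript length (horizontal axis); each line is 1 liver, colored by group, with a diamond for replicate 1, a circle for replicate 2 and a triangle for replicate 3. Liver 1 of WT APAP runs from 0.32 in the shortest quartile to -0.33 in the longest, outside the range of the other livers at both ends.

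Hemoglobin transcripts were present in all 12 livers and were far higher in liver 1 of WT APAP than elsewhere. Together the 4 genes took 1.29% of the counts in that library and 0.0207% to 0.0619% in the other 11. Hba-a1 was counted at 3527, 2933 and 3029 reads in WT vehicle livers, 238212, 5427 and 3446 in WT APAP livers, 3910, 4052 and 7713 in KO-labelled vehicle livers and 2551, 5021 and 6815 in KO-labelled APAP livers. Hbb-bs was counted, in the same order, at 5520, 4271 and 5043, at 303721, 8480 and 7276, at 6493, 6321 and 11738, and at 4231, 8561 and 11047 reads. Next to liver 1 of WT APAP, the highest counts belonged to liver 3 of the KO-labelled vehicle group, and the WT vehicle livers were the closest to each other. Hba-a2 had 1926 to 6171 reads in 11 livers and 195140 in liver 1 of WT APAP. Hbb-bt had 1711 to 5165 reads in 11 livers and 129225 in that liver.

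On the CPM scale the hemoglobin genes in liver 1 of WT APAP were 53.5 to 76.4 times their median over the other livers. Hba-a1 stood at 4730 CPM there against a median of 66.2 (range 44.6 to 170) in the other 11, and Hbb-bs at 6031 CPM against 113 (range 73.9 to 259). Among those 11 livers each hemoglobin gene varied by 3.51 to 4.05 times between the lowest and the highest. Of the 12304 genes with at least 1 CPM, 7 were 10 or more times higher in liver 1 of WT APAP than in any other liver; the hemoglobin genes took 4 of these places, with ratios to the next liver of 22.5 (Hbb-bt) to 28.4 (Hba-a2). No other liver had more than 1 gene so far above the rest. In TPM the distance was smaller. Hba-a1 stood at 8424 TPM in liver 1 of WT APAP against a median of 231 (range 157 to 407) in the other 11. Hbb-bs stood at 9395 TPM against 321 (range 204 to 542).

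**Figure D2:**
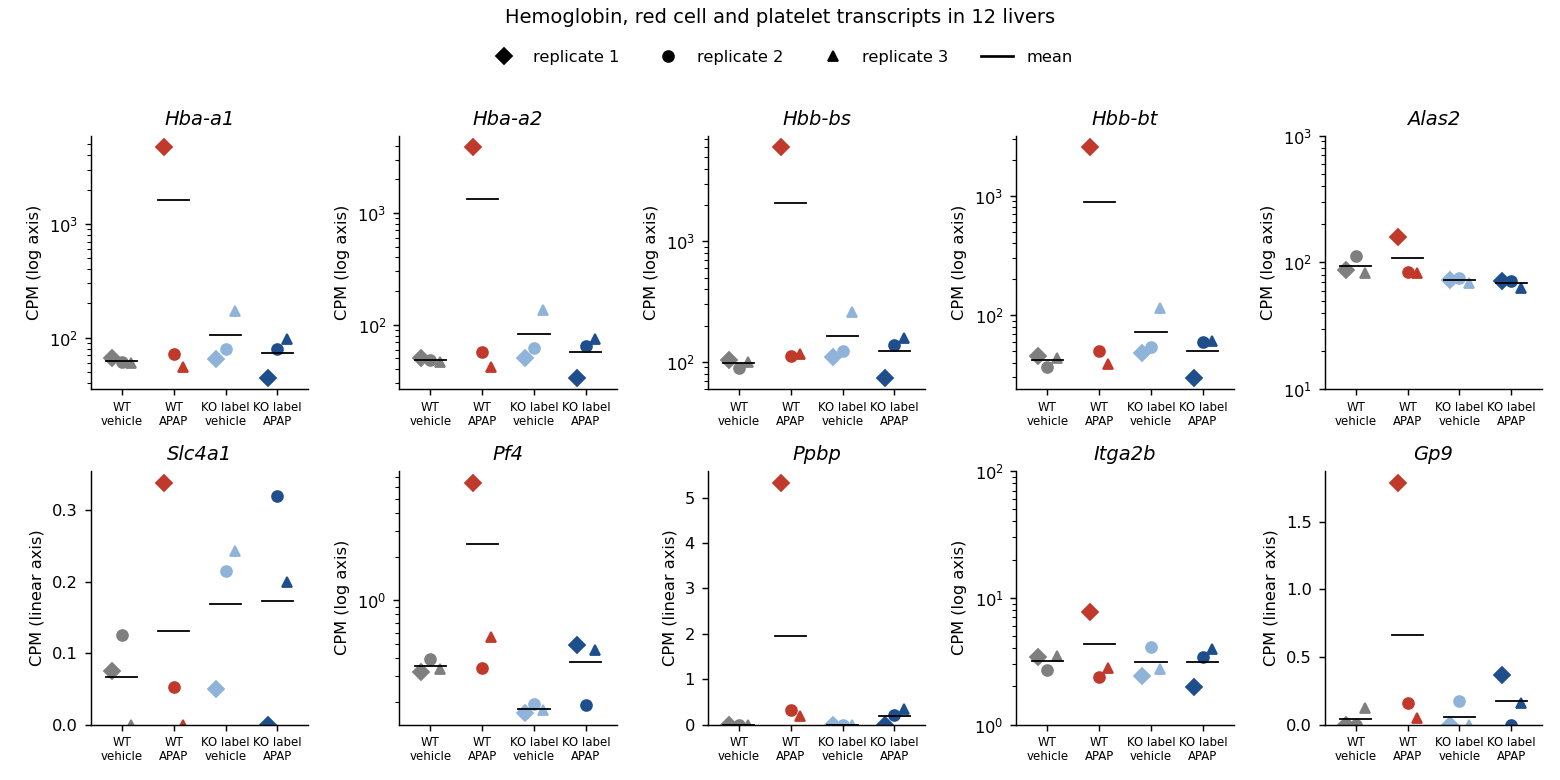
CPM of each of the 10 genes in every liver, on a log axis or, for Slc4a1, Ppbp and Gp9, a linear axis from 0; each symbol is 1 liver (diamond, circle and triangle for replicates 1, 2 and 3), colored by group, and each bar is a group mean of 3 livers. The diamond of WT APAP is the highest point in all 10 panels, with Hba-a1 at 4730 CPM against at most 170 elsewhere and Slc4a1 at 0.338 against at most 0.320.

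The proportions among the hemoglobin genes varied much less than their level. Per transcript length, in the deposited TPM, the order Hbb-bs, Hba-a1, Hba-a2, Hbb-bt held in 12 of 12 livers. Hbb-bs was 1.12 to 1.85 times Hba-a1, Hba-a1 was 1.23 to 1.33 times Hba-a2, and Hba-a2 was 1.19 to 1.69 times Hbb-bt. In liver 1 of WT APAP the ratio of Hba-a1 to Hba-a2 was 1.23, just under the 1.26 to 1.33 of the other livers, and the ratio of Hbb-bs to Hbb-bt was 2.32, inside their 2.21 to 2.92. The ratio of alpha to beta chain transcripts was 1.14 there and 0.712 to 0.986 in the others, so that alpha exceeded beta in that liver only.

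Alas2 did not follow hemoglobin. This erythroid 5-aminolevulinate synthase was counted at 4614, 5316 and 4125 reads in WT vehicle livers, 8057, 6312 and 5152 in WT APAP livers, 4319, 3901 and 3099 in KO-labelled vehicle livers and 4058, 4485 and 4456 in KO-labelled APAP livers. Its level in TPM was 80.7 in liver 1 of WT APAP, within the 46.3 to 82.4 of the other livers. On the CPM scale that liver was the highest, at 160 against 63.4 to 111, so whether Alas2 was raised in it depended on the scale. The ratio of summed hemoglobin to Alas2 in TPM was 356 in that liver and 6.98 to 32.7 in the others. Alas2 lies within the GENCODE span of Apex2 on the opposite strand, and 311 of its 2403 exonic bases are shared; Apex2 had 214 to 590 reads per liver, and the strand setting of the counting is not given in the sources used here.

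Slc4a1 was close to absent. This exchanger, among the most abundant proteins of the red cell membrane, had 4, 6 and 0 reads in WT vehicle livers, 17, 4 and 0 in WT APAP livers, 3, 11 and 11 in KO-labelled vehicle livers and 0, 20 and 14 in KO-labelled APAP livers. A count of 0 in a library allows up to 3 counts, and 8 of 12 livers exceeded that floor, which covers counting error only. The highest count was in a KO-labelled APAP liver and not in the liver richest in hemoglobin. On the CPM scale liver 1 of WT APAP (0.338) and liver 2 of the KO-labelled APAP group (0.320) were close.

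Platelet transcripts were rarer than hemoglobin and shared its highest liver. Pf4 was counted at 17, 19 and 17 reads in WT vehicle livers, 325, 26 and 35 in WT APAP livers, 10, 10 and 8 in KO-labelled vehicle livers and 28, 12 and 32 in KO-labelled APAP livers. It stood at 6.45 CPM in liver 1 of WT APAP, 19.0 times the median of the other 11 (0.339, range 0.168 to 0.556). In TPM it stood at 10.9 there against a median of 0.934 (range 0.374 to 1.60), a smaller distance. Ppbp had 268, 24 and 12 reads in WT APAP livers and 0, 13 and 24 in KO-labelled APAP livers. In the 6 vehicle livers it had 0 reads, so every count of Ppbp came from the APAP groups, in 5 of their 6 livers.

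Of the platelet membrane genes, Itga2b differed less between livers than Pf4, while Gp9 was counted mainly in liver 1 of WT APAP. Itga2b had 181, 128 and 175 reads in WT vehicle livers, 390, 180 and 175 in WT APAP livers, 145, 212 and 124 in KO-labelled vehicle livers and 114, 212 and 275 in KO-labelled APAP livers. At 7.74 CPM in liver 1 of WT APAP it was 2.78 times the median of the others, which ranged from 1.99 to 4.13. In TPM it was 2.24 there, close to the highest of the others, which ranged from 1.06 to 2.15. Gp9 had 90 reads in that liver, 0 in 5 livers and at most 21 in any of the other 11. The ratio of Pf4 to Itga2b in TPM was 4.86 in liver 1 of WT APAP and 0.271 to 1.40 elsewhere, so the granule chemokine and the membrane receptor of platelets did not keep a fixed proportion. Summed hemoglobin to Pf4 was 2637 in that liver, inside the 374 to 4042 of the other 11.

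**Figure D3:**
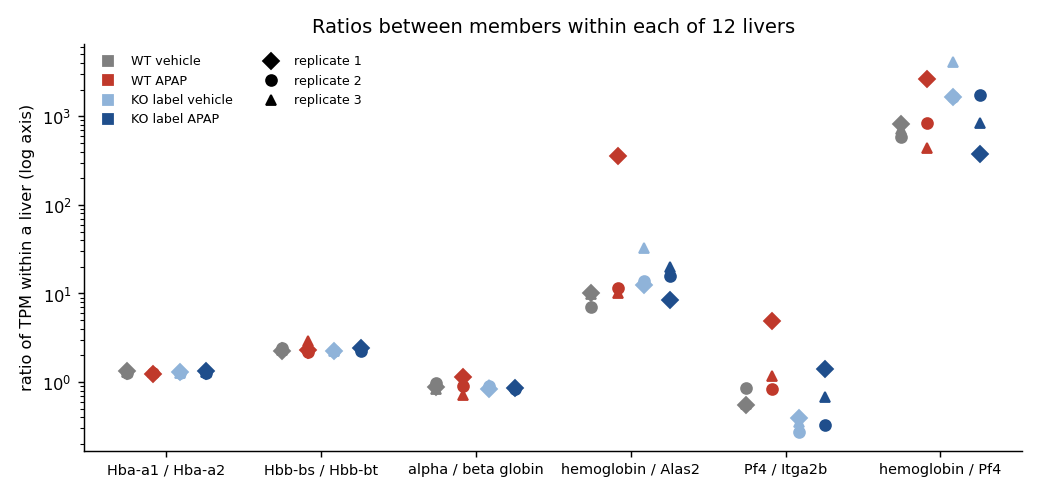
Ratios of TPM between members within each of the 12 livers on a log axis; colors mark the groups and symbols the replicates. The hemoglobin to Alas2 ratio of the WT APAP diamond (356) lies above all others (6.98 to 32.7), while its Hbb-bs to Hbb-bt and hemoglobin to Pf4 ratios lie within the range of the other livers.

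The question behind the design is what APAP does to the liver and whether the Gna12 genotype matters. In WT mice, no member passed the test between APAP and vehicle. By the edgeR quasi-likelihood test with Benjamini-Hochberg adjustment, 0 of the 8 members tested passed an adjusted p of 0.05, and 6 had an unadjusted p under 0.05. Over all genes tested the shares were 2.05% and 18.0%. The 6 included the 4 hemoglobin genes, which varied together and are not separate signals. DESeq2 and limma called 0 members, though DESeq2 gave a p for only 2 of the 8, since it withholds it for counts with an outlying library. The log2 fold change of Hba-a1 was 4.71 (SE 1.65, adjusted p = 0.188), with 1619 ± 2694 CPM after APAP and 62.7 ± 3.08 CPM with vehicle (mean ± SD, n = 3 each). The SD after APAP exceeded the mean, and without liver 1 the log2 fold change was 0.02 (SE 0.16, adjusted p = 0.969). The other hemoglobin genes had log2 fold changes of 4.41 to 4.79 with that liver and 0.04 to 0.22 without it.

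Among platelet genes in the WT comparison, Pf4 rested on the same liver, while Ppbp was also counted in the other APAP livers. Pf4 had a log2 fold change of 2.80 (SE 1.09, adjusted p = 0.233) and of 0.35 (adjusted p = 0.725) without liver 1. Ppbp was at least 32.6-fold higher after APAP than the vehicle group's floor of 3 counts per library, and at least 4.27-fold without liver 1, with adjusted p of 0.134 and 0.0914. Its vehicle counts were 0, so it entered the test through the APAP livers alone. Ppbp and Hbb-bs were the members whose groups did not overlap on CPM in WT mice, where 24.9% of all genes tested did not overlap; outside liver 1, Hbb-bs stood at 112.6 to 116 CPM after APAP and at 89.5 to 104 CPM with vehicle. Alas2 had a log2 fold change of 0.23 (SE 0.30, adjusted p = 0.724), and Slc4a1 and Gp9 were below the count filter.

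Under the KO label, hemoglobin was not higher after APAP. The edgeR quasi-likelihood test called 0 of 8 members tested at an adjusted p of 0.05 and 1 (Pf4) at an unadjusted p of 0.05, where 22.6% and 37.1% of all genes passed; DESeq2 and limma called 0. Hemoglobin genes had log2 fold changes of -0.41 (Hbb-bs) to -0.52 (Hba-a2), with adjusted p of 0.347 to 0.463. Hba-a1 averaged 73.9 ± 26.8 CPM after APAP and 105 ± 57.1 CPM with vehicle (mean ± SD, n = 3 each), and the groups overlapped. Without liver 3 of the vehicle group the hemoglobin fold changes lay between -0.02 and 0.09 on the log2 scale. Pf4 had a log2 fold change of 1.08 (SE 0.47, adjusted p = 0.134), with liver 2 after APAP at 0.192 CPM against at most 0.195 with vehicle. Ppbp, below the count filter in this comparison, was at least 3.14-fold higher than the floor. No member's groups were apart on CPM, while 42.9% of all genes tested had groups that did not overlap.

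The labels were then pooled and all 12 livers fitted with the genotype label as a covariate. In this fit 2 of the 9 members tested passed, both platelet chemokines, with only a rise open to Ppbp. These were Ppbp (adjusted p = 0.0159) and Pf4 (log2 fold change 2.01, SE 0.69, adjusted p = 0.0485) by the edgeR quasi-likelihood test, against a background of 25.7% of genes called and 37.4% at an unadjusted p of 0.05, where also 2 members stood. Pf4 averaged 1.42 ± 2.47 CPM after APAP and 0.266 ± 0.0983 CPM with vehicle (mean ± SD, n = 6 each). Ppbp was at least 18.0-fold above the floor. It had 0 reads in every vehicle liver and passed the count filter only through APAP livers, so the direction of its test was fixed in advance. Without liver 1 of WT APAP, Pf4 no longer passed (log2 fold change 0.74, adjusted p = 0.112). Ppbp still passed (adjusted p = 0.0147), again with its direction fixed in advance. It was at least 3.59-fold above the floor, with at most 24 reads in any remaining liver. Leaving out any of 8 other livers also ended the call of Pf4, with adjusted p up to 0.114. DESeq2 gave no p for Ppbp or Pf4, and limma on log2(TPM + 1) called neither (adjusted p of 0.156 for Ppbp and 0.213 for Pf4).

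Hemoglobin, Alas2 and Itga2b did not pass in the pooled fit. The hemoglobin genes had log2 fold changes of 1.94 to 2.13 (adjusted p of 0.304 to 0.338), and of -0.26 to -0.12 without liver 1 of WT APAP. Alas2 had a log2 fold change of 0.07 (SE 0.16, adjusted p = 0.784), and Itga2b of 0.22 (SE 0.29, adjusted p = 0.634).

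**Figure D4:**
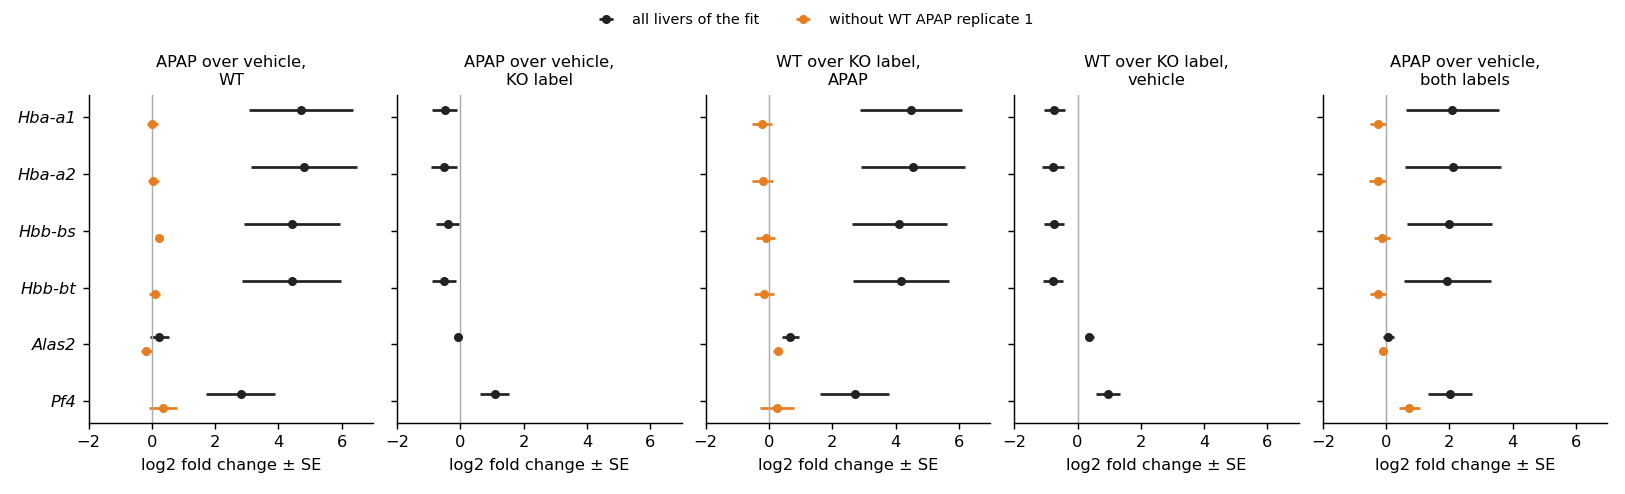
log2 fold change ± SE of the hemoglobin genes, Alas2 and Pf4 in 5 comparisons, in black for all livers of the fit and in orange without liver 1 of WT APAP (absent where that liver was not part of the comparison). The black hemoglobin points of WT mice lie at 4.41 to 4.79 and the orange ones at 0.02 to 0.22.

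Between the genotype labels after APAP no member passed, and the hemoglobin differences were large only with liver 1 of WT APAP in the fit. By the edgeR quasi-likelihood test 0 of 10 members passed an adjusted p of 0.05, and 7 had an unadjusted p under 0.05 against 0.0309% and 3.31% of all genes. The 7 included the 4 hemoglobin genes, which are not separate signals. DESeq2, with a p for 4 of the 10, and limma called 0 after adjustment. Log2 fold changes of WT over KO label were 4.12 to 4.56 for hemoglobin (each with an adjusted p of 0.958), and between -0.22 and -0.10 without liver 1 of WT APAP. Pf4 had 2.71 and, without it, 0.25, and Ppbp 3.38 and 0.46. Alas2 had 0.68 (SE 0.28) and 0.28 (SE 0.13) without it, and was the only member whose groups did not overlap on CPM (8.72% of all genes tested did not), at 81.9 to 160 against 63.4 to 71.7. The interaction of label and treatment called 0 of 9 members, 0% of all genes. An unadjusted p under 0.05 was reached by 4 members (the hemoglobin genes), against 5.14% of genes. DESeq2, with a p for 5 of the 9, and limma also called 0 members. The interaction estimates for hemoglobin were 4.83 to 5.31 on the log2 scale and 0.50 to 0.62 without liver 1.

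With vehicle, hemoglobin leaned lower and Alas2 and Pf4 higher in WT than under the KO label, but none passed. The edgeR quasi-likelihood test called 0 of 7 members tested at an adjusted p of 0.05 and 4 at an unadjusted p of 0.05 (Hbb-bs, Hbb-bt, Alas2 and Pf4), where 0.0262% and 7.56% of all genes passed, and DESeq2 and limma called 0 after adjustment. The groups did not overlap on CPM for 5 of the 7 (Hba-a2, Hbb-bs, Hbb-bt, Alas2 and Pf4), against 14.0% of all genes tested. The hemoglobin genes in both counts varied together and are not separate signals. Hbb-bs stood at 89.5 to 104 CPM in WT and 109 to 259 CPM under the KO label. The hemoglobin log2 fold changes of WT over KO label were -0.78 to -0.74 (adjusted p of 0.640 to 0.659), and -0.28 to -0.20 without liver 3 of the KO-labelled group. Alas2 differed in the opposite direction, by 0.37 (SE 0.15, adjusted p = 0.636), and Pf4 by 0.96 (SE 0.37, adjusted p = 0.635), with 0.319 to 0.398 CPM in WT and 0.168 to 0.195 CPM under the KO label.

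Many other red cell genes were at or near 0 reads. Of 19 other erythroid genes measured, Rhag, Rhd, Kel and Gata1 had 0 reads in all 12 livers, and 7 were highest in liver 1 of WT APAP. Their summed level was 268 CPM there against 183 to 249 CPM in the other 11 livers, a ratio of 1.23 to the median, where the hemoglobin genes had ratios of 53.5 to 76.4. In the pooled fit, where 25.7% of all genes were called, 9 could be tested: 2 rose after APAP (Slc25a37, a mitochondrial iron carrier named after its value was seen, log2 fold change 0.42, and Ermap, an erythroid membrane protein, 3.44) and 2 fell (Fech, which inserts iron into heme, -0.57, and Klf1, an erythroid transcription factor, -1.28). Ermap had at most 6 reads in any vehicle liver and passed the count filter only through APAP livers. The direction of its test was therefore fixed in advance. The median log2 fold change of the list was 0.26, against 0.01 over all genes tested, and -0.29 without liver 1 of WT APAP. Of the 6 other globin genes, Hba-x and Hbb-y had 0 reads throughout; Hbb-bh1, Hbb-bh2, Hbq1a and Hbq1b together reached 3.87 CPM in liver 1 of WT APAP and at most 0.155 CPM in any other liver, and none passed the count filter of the test.

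Other platelet genes were also highest in liver 1 of WT APAP, though less steeply than Pf4. Of 19 measured, 13 were highest there, and the summed list stood at 56.1 CPM against 27.1 to 43.0 CPM in the other livers. Tubb1, the beta tubulin of platelets, had 127 reads there and 0 to 5 elsewhere, and Nrgn, a calmodulin-binding protein abundant in platelet RNA, had 284 against 0 to 56 (Tubb1 was picked after its values were seen). In the pooled fit 3 of 8 tested rose after APAP and 0 fell, beside 25.7% of all genes called in either direction: Itgb3, the partner of Itga2b (log2 fold change 0.65, SE 0.15, adjusted p = 0.00732), Clec1b, the podoplanin receptor (0.76, SE 0.23, adjusted p = 0.0251), and Nrgn (3.33, SE 1.10, adjusted p = 0.0420). Nrgn had 0 to 12 reads in vehicle livers and 9 to 284 in APAP livers. It passed the count filter mainly through the APAP livers, so a fall could hardly have been called. Without liver 1 of WT APAP, Itgb3 and Clec1b still rose (adjusted p of 0.0106 and 0.0275) and Nrgn did not pass (adjusted p = 0.0742). The list's median log2 fold change was 0.71, and 0.61 without that liver, against 0.01 and -0.01 over all genes. Within WT mice 0 of 8 passed by edgeR (2.05% of all genes), and 4 had an unadjusted p under 0.05 (18.0% of all genes), which became 1 (Clec1b) without liver 1. Under the KO label 1 rose (Itgb3, 0.90) and 1 fell (Ptgs1, -0.59), beside 22.6% of all genes called. Clec1b is also expressed outside platelets, and Itgb3 by other cells of the vessel wall.

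Markers of white blood cells were also highest in liver 1 of WT APAP, but were not always high where hemoglobin was. The 12 neutrophil genes summed to 133.8 CPM in liver 1 of WT APAP, 51.1 times the median of the other livers (range 1.20 to 23.2), and 8 were highest there; the progenitor gene Camp had 0 reads in every liver. Across groups the neutrophil sum was 1.24 to 20.3 CPM in WT vehicle, 13.9 to 133.8 in WT APAP, 1.60 to 2.62 in KO-labelled vehicle and 1.20 to 9.35 in KO-labelled APAP livers. Liver 3 of the KO-labelled vehicle group, next in hemoglobin (0.0619% of counts), had a neutrophil sum of 2.25 CPM, and liver 3 of WT APAP, with 0.0253% hemoglobin, had 23.2 CPM. The 10 lymphocyte genes summed to 7.70 CPM against 1.75 to 5.68, with 5 highest there. In the pooled fit, with 25.7% of all genes called, 1 of 7 neutrophil genes rose (Cxcr2, a chemokine receptor, log2 fold change 2.79, adjusted p = 0.0376) and 0 of 9 lymphocyte genes; without that liver Cxcr2 had an adjusted p of 0.0883. Cxcr2 had 54 reads in liver 2 of WT vehicle, 0 to 4 in the other vehicle livers and 11 to 192 after APAP. It passed the count filter mainly through the APAP livers. The part of other blood cells in the hemoglobin and platelet values was not tested.

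Markers of resident liver cells differed less between livers. The 6 Kupffer cell genes summed to 169 CPM in liver 1 of WT APAP against 66.3 to 182 CPM, the 6 sinusoidal endothelial genes to 224.6 against 126 to 180.4, and the 6 hepatocyte genes to 142243 against 75171 to 103864. Each list was at most 1.63 times the median of the other livers. The hepatocyte markers were abundant in every library, as the tissue label requires. Beside the 25.7% of all genes called in the pooled fit, 0 of 6 Kupffer cell genes passed, 1 of 6 endothelial genes rose (Lyve1, 1.09) and 1 of 6 hepatocyte genes fell (Cyp2e1, the enzyme that oxidizes APAP, -1.06).

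**Figure D5:**
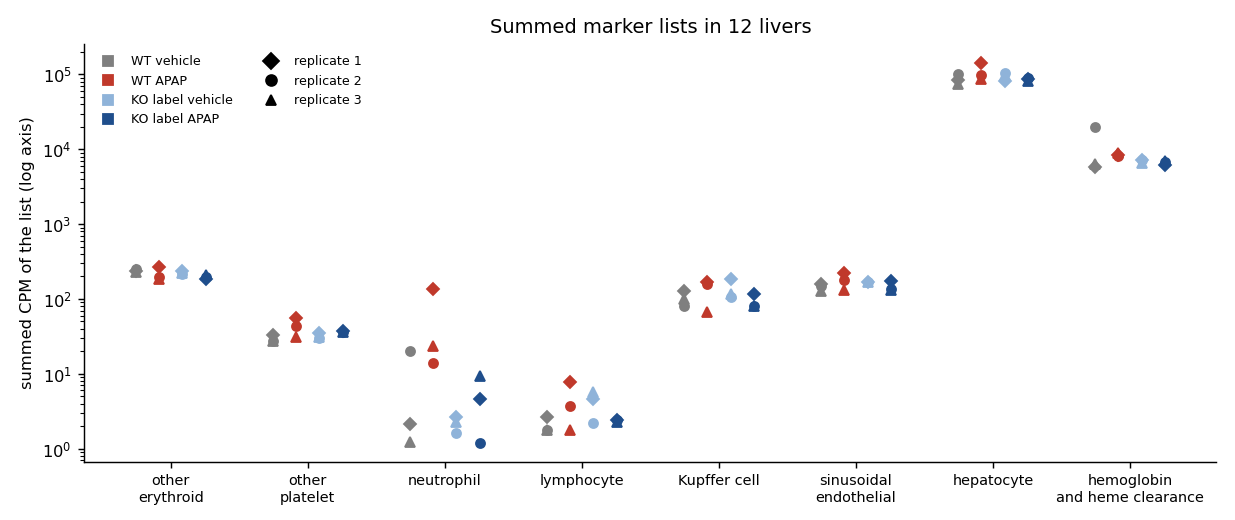
Summed CPM of 8 marker lists in the 12 livers on a log axis; colors mark the groups and symbols the replicates. Liver 1 of WT APAP (red diamond) is farthest from the others in the neutrophil list (133.8 against 1.20 to 23.2 CPM) and within their range in the Kupffer cell list (169 against 66.3 to 182 CPM).

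Among genes that clear hemoglobin and heme, Hmox1 differed most between APAP and vehicle. Hmox1, the heme oxygenase that opens the heme ring, had 833, 2301 and 530 reads in WT vehicle livers and 60635, 36467 and 39988 in WT APAP livers, and 972, 570 and 484 against 30856, 55850 and 47333 under the KO label. Every APAP liver lay above every vehicle liver under both labels. In the pooled fit it rose by 5.38 on the log2 scale (SE 0.43, adjusted p = 4.82e-06), and by 5.23 without liver 1 of WT APAP. Of the 9 genes of this list, 2 rose (Hmox1 and Slc48a1, a heme transporter, 0.69) and 1 fell (Lrp1, a receptor for hemopexin-heme, -0.61), beside 25.7% of all genes called, with a median of -0.06 against 0.01 over all genes. Haptoglobin (Hp), which binds free hemoglobin, had a log2 fold change of -0.42 (adjusted p = 0.349), with its highest count, 539902, in a vehicle liver (WT, liver 2); it was picked after its values were seen. In the WT comparison 1 of 9 passed, against 2.05% of all genes, and under the KO label 2 rose and 1 fell, against 22.6%.

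The genes outside the lists with the profile most like Hba-a1 over the 12 livers were far less like it than the other hemoglobin genes were. By the root mean square difference of centered log2 CPM among 12304 genes, Ctla2a (0.96), Cytip (0.99), Il1a (1.05), Acta2 (1.11) and Tmsb4x (1.11) came nearest to Hba-a1, while Hba-a2 (0.03), Hbb-bt (0.13) and Hbb-bs (0.16) were nearly superimposed on it. Pf4 differed from Hba-a1 by 0.99 and Alas2 by 1.49, where the spread of Hba-a1 itself was 1.73. Nearest to Pf4 were Ctla2a (0.56), Myl9 (0.63), Il1a (0.64), Srgn (0.65) and Otud1 (0.70), closer than any other member. The likeness rests on 12 points of which 1 liver lies far from the rest.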

How the data were processed

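Liver RNA from 12 mice was sequenced as poly-A libraries with paired reads of 100 bases. The authors deposited 1 table of 45777 genes with 3 values per liver. The deposited counts are whole read counts without normalization. The deposited FPKM values are scaled by transcript length and library size, and the deposited TPM values likewise but to a common sum. The submitters' processing notes name FastQC 0.11.7, Trimmomatic 0.38, HISAT2 2.1.0, Bowtie2 2.3.4.1 and StringTie 2.1.3b, and the strand setting is not given in the sources used here.

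Counts were scaled by TMM and tested by edgeR 4.0.16 (quasi-likelihood, filterByExpr, R 4.3.3) on the 6 livers compared, or on all 12 for the pooled and interaction fits, and p-values were adjusted by Benjamini and Hochberg's method across every gene in the fit (threshold 0.05). CPM in the text uses TMM factors over all 12 livers, and TPM is used between genes. The tests were checked on simulated data. A count of 0 was given a floor of 3 counts per library. Alternatives were DESeq2 1.42.0 (size factors, Wald test), limma 3.58.1 on quantile-normalized log2(TPM + 1), other count filters (none, or 10 counts in every liver), a replicate block, hemoglobin left out of library totals, all livers in 1 fit, each liver left out and, chosen after seeing the data, edgeR's newer quasi-likelihood method.

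Named genes were the 10 members, up to 3 genes per list by smallest unadjusted p in the comparison described, and the 5 genes nearest to Hba-a1 and to Pf4. The 9 lists held 94 genes, of which 93 were found. Members and lists were chosen with earlier results of these data known. The labels do not say more than that the samples are separate livers, so p-values measure the spread between them.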

Additional observations from a re-analysis of the deposited data

How the results depend on the processing

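The 0 members called between APAP and vehicle in WT mice, between the labels after APAP, between the labels with vehicle and in the interaction stayed at 0 under each alternative run. DESeq2's Wald test gave no p for some members in WT mice, between the labels after APAP and in the interaction. Under the KO label the count ranged from 0 to 1 as livers were left out, the 1 being Ppbp without APAP liver 1 (adjusted p = 0.0207). That liver was the APAP liver with 0 Ppbp reads, and with it Ppbp was below the count filter. The KO-labelled vehicle livers had 0 Ppbp reads, so the direction of this call was fixed in advance. The 2 members called in the pooled fit became 1 without the count filter, 0 with at least 10 counts in every liver (a filter that removes both), 0 by DESeq2's Wald test (no p for either), 0 by limma, and 1 to 2 as livers were left out. Same-numbered livers share only a number (their deviations correlated at -0.26 to 0.05), and with the replicate number as a block 1 member was called in the pooled fit and 0 elsewhere.

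Log2 fold changes reversed only when a liver was left out. Over livers left out, those of Alas2 ranged from -0.17 to 0.40 in WT mice, from -0.11 to 0.13 in the pooled fit and from -0.12 to 0.46 in the interaction, and that of Itga2b from -0.13 to 0.36 in the pooled fit. In the pooled fit Hba-a1 ranged from -0.26 to 2.93, Hba-a2 from -0.26 to 2.99, Hbb-bs from -0.12 to 2.74 and Hbb-bt from -0.24 to 2.70. Under the KO label Hba-a1 ranged from -0.74 to 0.042, Hba-a2 from -0.76 to 0.037 and Hbb-bs from -0.63 to 0.089, and between the labels after APAP Hba-a1 ranged from -0.22 to 5.06, Hba-a2 from -0.20 to 5.13, Hbb-bs from -0.10 to 4.68 and Hbb-bt from -0.15 to 4.75. The interaction of Pf4 ranged from -0.73 to 2.26. The low ends were without liver 1 of WT APAP, except under the KO label. Of 316 values under the other settings, 312 kept direction and side of the threshold and 4 lost a call.

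Over all genes, the number called in WT mice was 322 by edgeR, 1413 by DESeq2, 1523 with all livers in 1 fit and 56 with the block; under the KO label 3538 against 2249 with all livers in 1 fit; between the labels after APAP 5 against 29 (DESeq2), 8 (limma), 1 (block), 1 (at least 10 counts) and 0 (all livers in 1 fit), and with vehicle 4 against 137 (DESeq2), 0 (block) and 0 (all livers in 1 fit). Low counts limit Slc4a1 (0 to 20 reads), and Ppbp, Gp9 and Pf4 outside liver 1 of WT APAP (at most 24, 21 and 35 reads).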

Other observations

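Liver 1 of WT APAP also held the highest level of genes beyond the 10 members, some of them blood cell genes. Of the 12304 genes with at least 1 CPM, 19 were 5 or more times higher there than in any other liver, against 0 to 11 genes in each of the others. Besides the 4 hemoglobin genes they included Hilpda, a lipid droplet protein induced by low oxygen (211 CPM against at most 15.8), Apold1, an endothelial early response gene (34.9 against 2.70), Nr4a1, an immediate early nuclear receptor (295.8 against 25.9), Fst, the activin antagonist follistatin (64.6 against 6.87), Igfbp1, an insulin-like growth factor binding protein (1799 against 307), and Thbs1, a platelet granule and matrix protein (78.0 against 14.3). The neutrophil genes S100a8, S100a9 and Retnlg were also among them, with 6.76 to 8.49 times the next liver. These genes were picked after their values were seen and carry no test.

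Liver 3 of the KO-labelled vehicle group came next in hemoglobin. Its hemoglobin share was 0.0619% of counts, its Ppbp count was 0, its Pf4 count was 8, the lowest of the 12, its neutrophil sum was 2.25 CPM, and 0 genes were 5 or more times higher there than elsewhere. Liver 2 of the WT vehicle group had the highest vehicle neutrophil sum (20.3 CPM) and the lowest WT hemoglobin share (0.0211%).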
